A study of Homo sapiens with 3 samples.

Results

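The comparison described here is RAB11A siRNA 2 against control siRNA in EBC-1 cells, a long-established line from a human squamous carcinoma of the lung. Transcript starts had been counted by CAGE (cap analysis of gene expression), a method that sequences short tags from capped 5′ ends. The study holds 3 libraries, 1 each for a negative control siRNA, RAB11A siRNA 1 and RAB11A siRNA 2. All had received 600 pmol of siRNA by electroporation, and the protocol gives a time of 72 h after plating. The comparison covers every gene with a mean of at least 5 CPM (tag counts per 1000000 tags of the library) over the 3 libraries. Of 13479 gene entries in the table, 10788 passed, and entries with identical values in every library were counted once, which left 10357 distinct rows. Each row has a log2 ratio of (CPM + 1) with siRNA 2 to (CPM + 1) with control. With 1 library a side there is no replicate check and no test between the conditions, so only sizes are given, each with a counting standard error (SE) from the Poisson variance of its tags. The values of every library moved in steps of 0.04 CPM, which is the share of 1 tag among 24999950, so a gene at 5 CPM rests on 125 tags. SEs and intervals cover counting error only, since the sources used here do not say whether tags are separate molecules. The siRNA 1 library used the same control library, so its values stand beside those of siRNA 2 as a description and are no second check. The cells are measured in bulk, so fewer cells of a kind and less RNA per cell cannot be told apart.

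RAB11A is a GTPase that works on recycling endosomes, membranes that return internalised receptors and membrane to the cell surface. In its GTP-bound form it recruits effectors, among them the RAB11FIP proteins, myosin V motors and the exocyst, that carry vesicles outward. Its close relatives are the widely expressed RAB11B and the epithelial RAB25. An siRNA is a short duplex whose guide strand pairs with a matching mRNA and directs its cleavage, and bases 2 to 8 of the guide, the seed, can also pair with sites in other mRNAs.

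Because the guide sequence decides what else could be bound, both siRNAs are shown with the seed of each antisense (guide) strand in capitals, the deposited sequences being read as sense strands.
siRNA 2 sense strand: agcaagagcuuuugcagaa
siRNA 2 antisense strand: uUCUGCAAaagcucuugcu
siRNA 1 sense strand: gcauccagguugauggaaa
siRNA 1 antisense strand: uUUCCAUCaaccuggaugc
The siRNA 2 target lies across the junction of coding exons 3 and 4 of 5 in RAB11A, with 17 bases at chr15:66170277-66170293 and 2 bases at chr15:66172009-66172010 (GRCh37, plus strand). The siRNA 1 target lies within coding exon 2, at chr15:66169784-66169802. The seeds of both guides differ, and their matches in an mRNA read TTGCAGA for siRNA 2 and GATGGAA for siRNA 1.

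RAB11A itself stood at 135, 7.48 and 22.7 CPM (control, then siRNA 1, then siRNA 2, the order used for every gene below). With siRNA 2, 16.8% of the control level remained (95% exact binomial interval 15.3% to 18.3%), which is a log2 ratio of -2.53 with a counting SE of 0.063. The level with siRNA 2 lay between the other libraries, above that with siRNA 1 and far below control. RAB11B stood at 124, 113 and 97.4 CPM (log2 ratio -0.34, counting SE 0.039), lowest with siRNA 2. RAB25 matched no entry in the values used here. Of the 32 genes listed for the RAB11 family and recycling endosome, 26 rows were compared, 9 above and 17 below control, with a median of -0.04, beside -0.04 over all rows, and both medians turned positive under the other scalings given below. RAB11A was the only one of these 26 rows past 1.5-fold. SNX4, a sorting nexin of the recycling route, stood at 62.5, 53.2 and 48.9 CPM (-0.35) and EHD4, an ATPase that shapes endosomal tubules, at 51.8, 61.4 and 62.3 CPM (0.26). Among 22 rows for the exocyst, retromer and sorting nexins none was past 1.5-fold. The lowest there was VPS35, the retromer core subunit, at 160.0, 145 and 126 CPM (-0.35), and its start has a near-copy at another locus.

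Across all rows the ratios were narrow around a point just under 0. The median was -0.04, the middle 50% of rows spanned -0.19 to 0.10, and 98% spanned -0.71 to 0.60, beside a median counting SE of 0.071. Of the 10357 rows, 18 (0.174%) were at least 2-fold higher than control with siRNA 2 and 26 (0.251%) at least 2-fold lower. At 1.5-fold, 121 (1.17%) were higher and 190 (1.83%) lower. That split depended on scaling, since TMM factors gave 161 higher and 152 lower and median-ratio factors 160 and 153. Both factors moved every ratio up by about 0.05, so that the median of all rows came to 0.0034 and 0.0025. The gains of single rows summed to 6.32% of the control CPM and the losses to 6.60%. With siRNA 1 the counts past 1.5-fold were 290 higher and 260 lower.

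**Figure D1:**
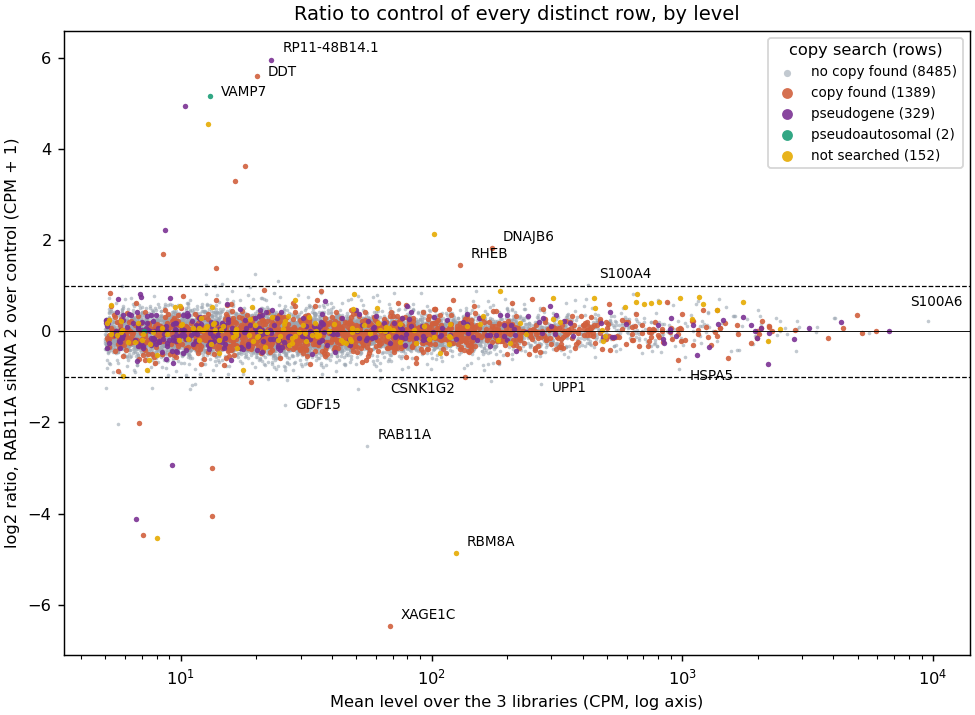
Each point is a distinct row, with its mean level over the 3 libraries on the x axis (CPM, log axis) and its log2 ratio of siRNA 2 to control on the y axis, coloured by whether an annotated start had a near-identical copy in the genome, with dashed lines at 2-fold. Most rows lie near 0, and RAB11A at -2.53 and GDF15 at -1.63 stand among the lowest of the rows with no copy, while wider ratios such as -6.48 for XAGE1C and 5.16 for VAMP7 belong to other classes.

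Ratios past 2-fold fell into loci with and without near-copies. Each annotated start of a gene was searched over its first 50 bases, and a match elsewhere with at most 2 mismatches counted as a copy. Of the 26 rows at least 2-fold lower, 15 had no copy, 7 had a copy, 2 were pseudogenes and 2 were not searched. Of the 18 rows at least 2-fold higher, 5 had no copy, 7 had a copy, 3 were pseudogenes, 1 was pseudoautosomal and 2 were not searched. Rows with no copy made up 8485 of the 10357.

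Among the lower rows with no copy, several stress and metabolic genes were low with both siRNAs. GDF15, a stress-induced cytokine (chr19:18485541-18499986, GRCh37), stood at 53.2, 8.04 and 16.6 CPM (log2 ratio -1.63, counting SE 0.077), and its row also stands for MIR3189, a nested gene with identical values. EPAS1, the hypoxia-inducible factor HIF-2 alpha, stood at 19.1, 6.16 and 7.28 CPM (log2 ratio -1.28, counting SE 0.11) and HMOX1, which degrades heme, at 87.3, 29.4 and 35.7 CPM (log2 ratio -1.27, counting SE 0.056). GDF15, EPAS1 and HMOX1 were lowest with siRNA 1, and siRNA 2 was nearer to it than to control. UPP1, a uridine phosphorylase, stood at 451, 169.6 and 201 CPM (log2 ratio -1.16, counting SE 0.024). MKNK2, a kinase that phosphorylates the cap-binding factor eIF4E, stood at 269, 123 and 126 CPM (log2 ratio -1.09, counting SE 0.031). RAB43, a Golgi-associated GTPase, stood at 34.8, 15.6 and 16.4 CPM (-1.04), and LAMP3, a lysosome-associated membrane glycoprotein, at 44.6, 14.5 and 20.8 CPM (-1.06).

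CSNK1G2, GALNT10 and ZNF609, also with no copy, were lowest with siRNA 2. CSNK1G2, a casein kinase 1 isoform (chr19:1941171-1981337), stood at 80.3, 67.2 and 38.7 CPM (log2 ratio -1.03, counting SE 0.055). GALNT10, which starts O-linked glycan chains (chr5:153570290-153800544), stood at 38.1, 31.4 and 18.6 CPM, exactly 2-fold lower on the log2 (CPM + 1) scale (counting SE 0.078), and an overlapping gene lies on its strand. CSNK1G2 and GALNT10 with siRNA 1 were nearer to control than to siRNA 2. ZNF609, a zinc finger gene on the chromosome of RAB11A (chr15:64752777-64978267), stood at 17.0, 10.1 and 7.08 CPM (log2 ratio -1.15, counting SE 0.12). DUS1L, a tRNA dihydrouridine synthase, missed 2-fold, at 74.96, 70.6 and 41.4 CPM (log2 ratio -0.84, counting SE 0.055). For DUS1L the siRNA 1 and control levels were close and siRNA 2 alone was low. The remaining lower rows with no copy were 1 of the TRIM16 entries and 3 rows with a mean under 10 CPM, named after their values were seen. Those were ACTA1 at 13.2, 1.20 and 2.44 CPM, FLRT2 at 8.36, 3.80 and 2.92 CPM and C16orf52 at 11.1, 7.84 and 4.12 CPM. ACTA1, which encodes skeletal muscle actin, was lowest with siRNA 1, and FLRT2, a cell-surface adhesion protein, and C16orf52 with siRNA 2. UBQLN4, a ubiquitin-binding shuttle protein with a copied start, stood at 27.4, 17.8 and 12.1 CPM (-1.12), and PABPN1, the nuclear poly(A)-binding protein, also with a copied start, at 199, 111 and 98.1 CPM (-1.01).

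The higher rows with no copy were few. S100A4, which binds calcium and nonmuscle myosin (chr1:153516089-153522612), stood at 250.4, 502 and 508 CPM (log2 ratio 1.02, counting SE 0.022), with both siRNA libraries level with each other. SERPINB2, an inhibitor of plasminogen activators (chr18:61538926-61571122), stood at 7.76, 31.8 and 19.9 CPM (log2 ratio 1.26, counting SE 0.11), highest with siRNA 1. FST, the activin-binding protein follistatin (chr5:52776456-52782964), stood at 7.96, 12.9 and 17.0 CPM (log2 ratio 1.00, counting SE 0.11). RMND5A, a subunit of the CTLH ubiquitin ligase, stood at 9.72, 13.3 and 20.9 CPM (log2 ratio 1.03, counting SE 0.10), and the long noncoding RNA CTD-2021J15.2 at 16.6, 20.1 and 36.4 CPM (1.09). FST, RMND5A and CTD-2021J15.2 were highest with siRNA 2. Just inside the 2-fold limit were GALNT10, FST (1.00), PABPN1 (-1.01), S100A4, RMND5A and CSNK1G2. Just outside it were ESM1 (0.99), TBC1D9 (0.99), WBP7 (-0.98), CRIP1 (0.96), HIPK1 (-0.96) and AC027307.3 (-0.95).

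**Figure D2:**
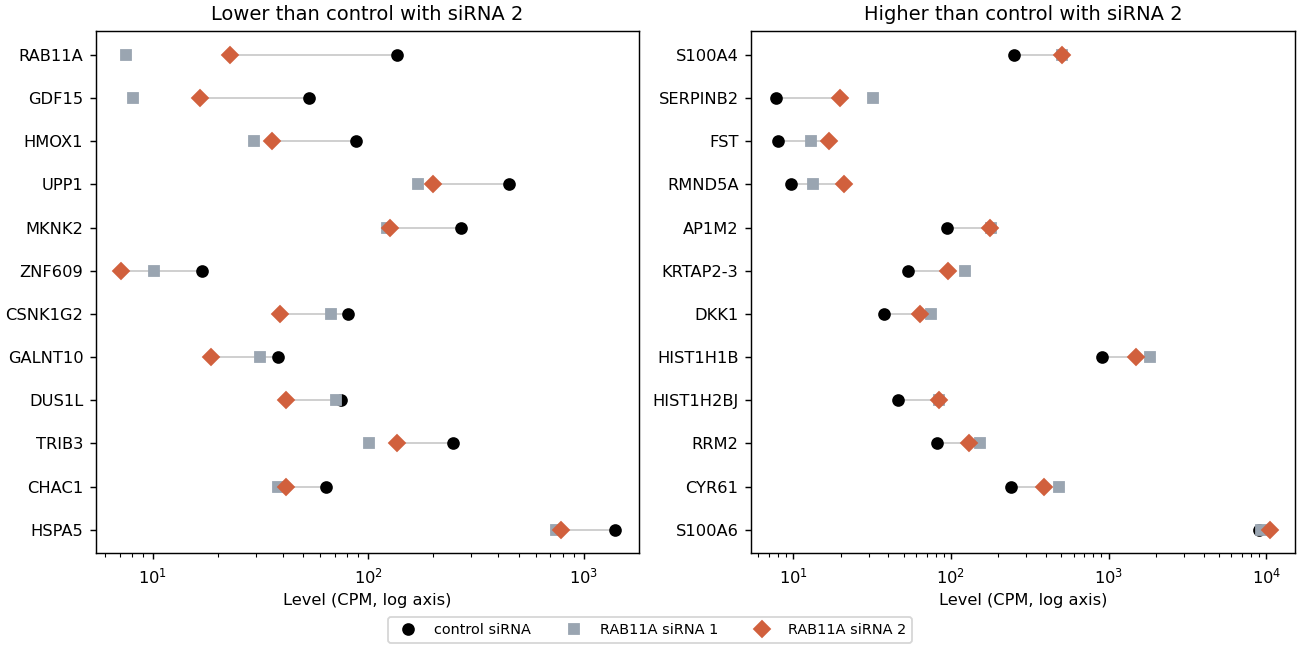
Levels of 24 named genes in the control, siRNA 1 and siRNA 2 libraries (CPM, log axis), 12 that were lower with siRNA 2 on the left and 12 that were higher on the right, with a line from control to siRNA 2. CSNK1G2, GALNT10 and DUS1L with siRNA 1 lie near their control points, while GDF15 and HMOX1 are lowest with siRNA 1, and S100A4 and AP1M2 have overlapping siRNA points.

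The widest ratios belonged to pseudogenes and to loci with a copied start, a pseudoautosomal place or no search, and several of these were near 0 in 1 library and well above it in another. XAGE1C, a cancer/testis antigen gene on chromosome X, stood at 124, 80.4 and 0.40 CPM and RBM8A, a core exon junction protein that could not be searched, at 353, 11.3 and 11.1 CPM. VAMP7, a pseudoautosomal gene for a vesicle SNARE, stood at 0.12, 0.12 and 39.0 CPM, and DDT, a tautomerase with a tandem relative, at 0.16, 4.72 and 55.4 CPM. The processed pseudogene RP11-48B14.1 had the second widest ratio of all rows, 5.96, at 0.12, 0.20 and 68.6 CPM. Summing related entries, a step chosen after the values were seen, changed some of these. The 2 entries for LINC00152 and its near-copies summed to 35.4, 13.2 and 45.7 CPM, so the sum was higher with siRNA 2 than control although LINC00152 alone had -2.998. The 3 TRIM16 and TRIM16L entries summed to 27.0, 23.8 and 26.2 CPM, a ratio of -0.04, although 1 TRIM16 entry was more than 2-fold lower. The 2 NSUN5 entries summed to 38.3, 21.4 and 17.2 CPM (-1.11). RHEB, the GTPase that activates mTORC1, and DNAJB6, a heat shock cochaperone, are expressed genes with a copied start. RHEB stood at 87.2, 61.4 and 239.6 CPM (log2 ratio 1.45, counting SE 0.036), high with siRNA 2 alone, and DNAJB6 at 70.5, 199 and 253 CPM (log2 ratio 1.83, counting SE 0.038), high with both. Which start their tags came from was not tested.

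The lists described next were compared by the number of their rows above and below control and by their medians, beside a median of -0.04 and 58.4% of rows below control over all genes. Their counts past 1.5-fold stand beside 1.17% higher and 1.83% lower over all rows. The lowest median among lists of at least 9 rows belonged to targets of ATF4 and CHOP, the transcription factors of the integrated stress response, which raise amino acid synthesis, uptake and tRNA charging. Of 36 genes listed, 35 rows were compared, and 33 were below control with siRNA 2, with a median of -0.34. Of these 35 rows, 8 were at least 1.5-fold lower and 0 higher, against 1.83% and 1.17% of all rows. TRIB3, a pseudokinase that ATF4 induces, stood at 247, 101 and 136 CPM (log2 ratio -0.86, counting SE 0.031) and DDIT3, which encodes CHOP, at 196, 96.0 and 111 CPM (log2 ratio -0.82, counting SE 0.034). DDIT4, an inhibitor of mTORC1, stood at 145, 72.7 and 81.6 CPM (-0.82), and ADM2, a peptide hormone gene, at 17.5, 8.88 and 10.2 CPM (-0.73). CHAC1, which breaks down glutathione, stood at 63.4, 38.0 and 41.3 CPM (-0.61), and ASNS, asparagine synthetase, at 338, 249.6 and 267 CPM (-0.34). All 6 were lower than control with either siRNA. CHAC1 and ASNS were named for a promoter element described below. PCK2, the mitochondrial gluconeogenic enzyme, was outside the list and stood at 115, 60.1 and 66.6 CPM (-0.78).

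Aminoacyl-tRNA synthetases, which charge tRNAs, had 19 of 22 rows below control, a median of -0.20, and none past 1.5-fold. WARS, the tryptophan enzyme, stood at 367, 189.8 and 252 CPM (-0.54), NARS, the asparagine enzyme, at 161, 110.3 and 113 CPM (-0.51), and GARS, the glycine enzyme, at 1026, 689 and 744 CPM (-0.46). The counting SEs were 0.024, 0.035 and 0.014, and 5595 of all 10357 rows had a 95% counting interval that left out 0. Such an interval does not hold the spread between libraries. Among ER chaperones and ER-associated degradation, 24 of 31 rows were below control, with a median of -0.12. Of the 31 rows, 3 were at least 1.5-fold lower and 0 higher, against 1.83% and 1.17% of all rows. HSPA5, the main ER chaperone BiP, stood at 1393, 744 and 781 CPM (log2 ratio -0.83, counting SE 0.013) and HYOU1, its cochaperone, at 259, 140.5 and 159 CPM (-0.71). XBP1, a transcription factor of the unfolded protein response, stood at 353, 218 and 258 CPM (-0.45) and OS9, an ER lectin, at 122, 116 and 90.4 CPM (-0.43). OS9 with siRNA 1 was close to control, unlike the other 3.

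Promoters of these genes were searched for short elements, from RefSeq sequences of 250 bases before to 50 after the start (GRCh38.p14), found for 8150 rows. The composite element bound by ATF4 with C/EBP factors, read as TGATGNAA on either strand, stood in 6 of 27 promoters of the ATF4 list and 6 of 18 of the synthetases, against 1.61% of the 8150. The ER stress element, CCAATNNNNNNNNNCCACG, which contains a CCAAT box, stood in 6 of 29 ER chaperone promoters and in 0.135% of all. Stretches of 100 bases before the start are shown for 3 genes from these lists, because each holds the element of its list, here in capitals.
CHAC1 promoter, chr15:40953221-40953320, plus strand: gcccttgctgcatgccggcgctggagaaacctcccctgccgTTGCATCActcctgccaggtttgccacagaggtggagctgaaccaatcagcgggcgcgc
ASNS promoter, chr7:97872409-97872508, minus strand: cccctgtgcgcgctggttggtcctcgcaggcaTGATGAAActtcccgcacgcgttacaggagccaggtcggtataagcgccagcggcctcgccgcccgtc
HSPA5 promoter, chr9:125241344-125241443, minus strand: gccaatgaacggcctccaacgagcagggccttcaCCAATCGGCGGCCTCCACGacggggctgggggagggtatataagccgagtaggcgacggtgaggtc
CHAC1 carries its match on the opposite strand, -209 bases from the start, ASNS at -68 and HSPA5 at -66. Ratios of genes with a match differed in size and sign. Of the 6 ER chaperone genes with the element, HSPA5, XBP1 and HSP90B1 had ratios of -0.83, -0.45 and -0.32, while CANX, CALR and CRELD2 had -0.09, 0.04 and 0.08. CALR, a lectin chaperone, stood at 1073, 1299.8 and 1100.5 CPM. The 12 matches counted over the ATF4 and synthetase lists belong to 11 genes, since CARS is in both, and all 11 were below control, from -0.61 in CHAC1 to -0.15 in TARS. Most rows of both lists were below control (33 of 35 and 19 of 22), so this count does not set genes with the element apart. Over all 131 promoters with the composite element, 4 genes (3.05%) were at least 1.5-fold lower and 0 higher, against 1.75% lower without it. List members were not left out of this count, and CHAC1 is 1 of the 4. A match is a description of the letters and shows no binding.

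The highest median of any list belonged to the replication-dependent histone genes, whose mRNAs are made in S phase and end in a stem-loop instead of a poly(A) tail. All 43 rows compared, of 48 entries, were above control with siRNA 2, with a median of 0.59. Of the 43 rows, 22 were at least 1.5-fold higher, against 1.17% of all rows. HIST1H2BB stood at 108, 256 and 200.2 CPM (log2 ratio 0.88, counting SE 0.034), HIST1H2BJ at 46.1, 83.5 and 83.6 CPM (log2 ratio 0.84, counting SE 0.052) and HIST1H2AB at 422, 819 and 743 CPM (log2 ratio 0.81, counting SE 0.018). HIST1H4B stood at 437, 708 and 764 CPM (0.81), and the linker histone gene HIST1H1B at 907, 1821 and 1484 CPM (0.71). HIST1H4B was highest with siRNA 2, and HIST1H2BB, HIST1H2AB and HIST1H1B with siRNA 1. The lowest ratio among them was 0.11, for HIST1H1D at 71.0, 110.5 and 76.9 CPM. Of the 43 rows, 23 had a copied start or were not searched, and the median of the others was 0.47. The list summed to 22006 CPM with control and 31674 with siRNA 2.

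Histone promoters were matched for 19 genes under their older symbols, and 14 of them held the letters of the TATA box, TATAAA, on either strand of the 300 bases, against 4.86% of all. In 12 of the 14 a match lay 27 to 31 bases before the start, while in HIST4H4 and HIST1H2BC it lay at -250 and -220. The stretch of HIST1H2BJ shows the match nearest the start in capitals.
HIST1H2BJ promoter, chr6:27132796-27132895, minus strand: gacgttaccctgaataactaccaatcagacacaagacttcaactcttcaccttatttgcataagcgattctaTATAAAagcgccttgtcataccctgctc
The match begins -28 bases from the start. Of the 396 genes with these letters, 4.29% were at least 1.5-fold higher, against 0.658% of those without it. With histones left out, a step added after the values were seen, the shares were 3.40% of 382 (13 genes) and 0.619% of 7749.

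DNA replication and G1/S genes had 42 of 47 rows above control and a median of 0.28. Of the 47 rows, 2 were at least 1.5-fold higher, against 1.17% of all rows. RRM2, a ribonucleotide reductase subunit, stood at 81.0, 153 and 131 CPM (log2 ratio 0.69, counting SE 0.040) and GINS3, a subunit of the replicative helicase, at 7.84, 11.9 and 12.4 CPM (log2 ratio 0.60, counting SE 0.12). LIG1, which joins Okazaki fragments, stood at 16, 23.8 and 23.2 CPM (0.51) and TYMS, which makes thymidylate, at 176, 285 and 246 CPM (0.48). For G2/M and mitosis genes 30 of 40 rows were above control, with a median of 0.13, beside 0.53 with siRNA 1. CKS2, a CDK-binding protein, stood at 3775, 6157 and 5701 tags, each tag worth 0.04 CPM (log2 ratio of CPM + 1, 0.59). The proliferation marker MKI67 stood at 59.4, 96.7 and 86.9 CPM (0.54). CDC25B, the phosphatase that starts mitotic entry, stood at 30.0, 27.6 and 20.9 CPM (-0.50), lowest with siRNA 2. The E2F element, TTTNGCGC, stood in 15 of 40 replication promoters against 3.35% of all, and the cell cycle homology region, TTTGAA, in 23 of 34 mitosis promoters against 8.94%. The 16 rows for G1 cyclins, CDKs and their inhibitors had a median of -0.05 and none past 1.5-fold. E2F4, a pocket-protein partner, stood at 109, 88.2 and 76.3 CPM (-0.51).

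**Figure D3:**
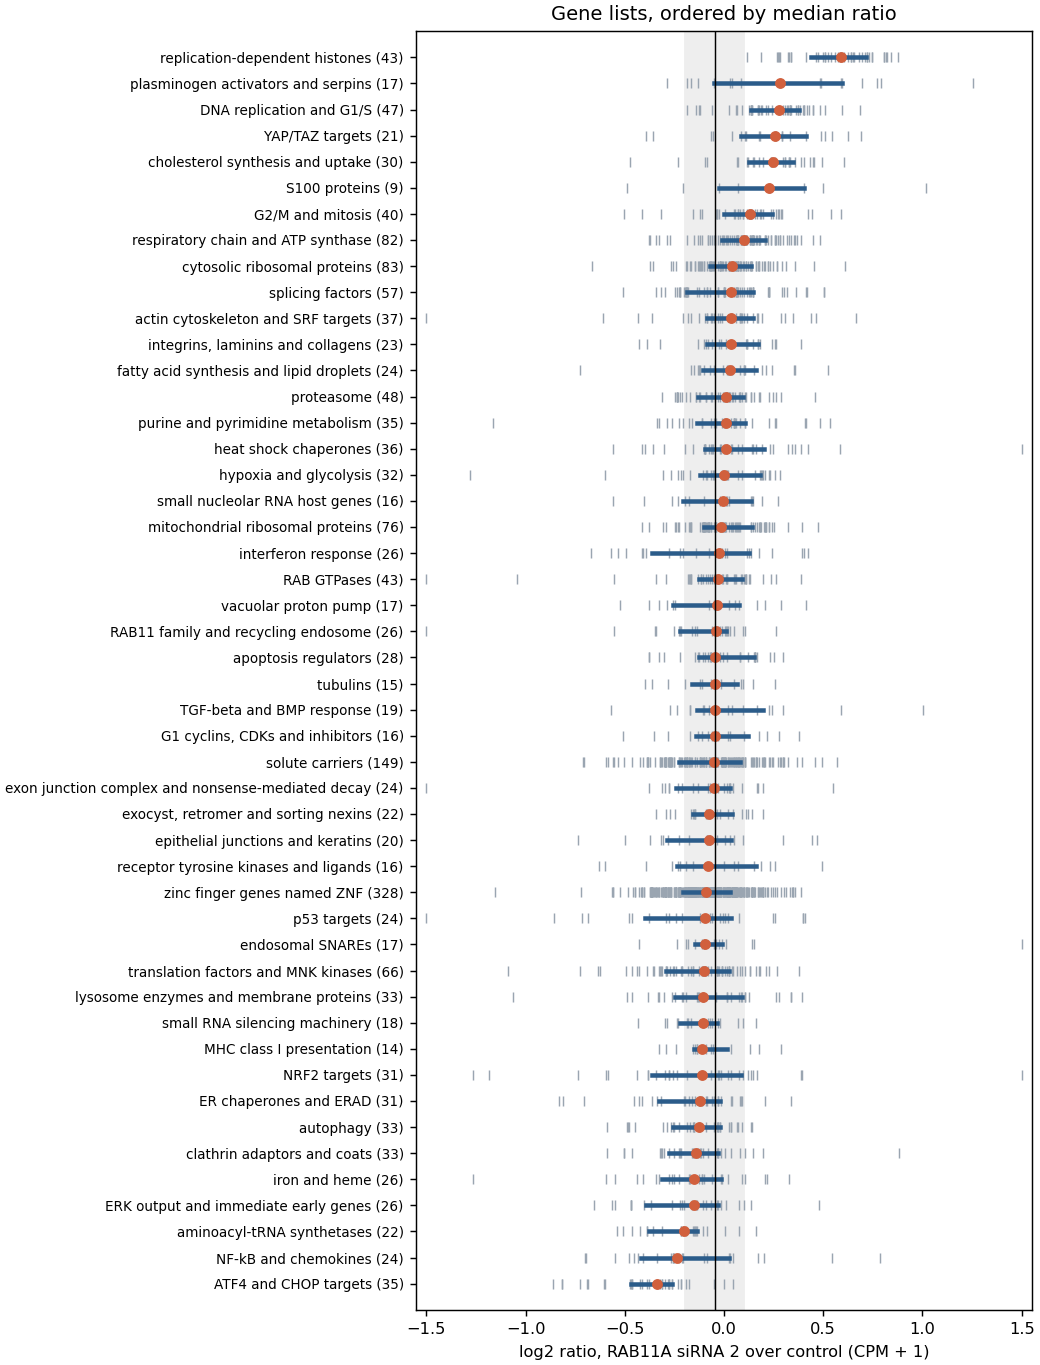
Gene lists with at least 9 rows, ordered by median, with the number of rows in brackets. Each tick is the log2 ratio of siRNA 2 to control of 1 row (values beyond 1.5 are drawn at 1.5), the bar spans the middle 50% and the dot is the median, and the grey band and line give the middle 50% and the median of all 10357 rows. All 43 histone rows lie above 0, and 33 of the 35 ATF4 and CHOP rows lie below it.

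Of 30 genes listed for plasminogen activators, serpins, matrix metalloproteinases and TIMPs, 17 rows were compared, and 12 were above control. Of the 17 rows, 6 were at least 1.5-fold higher against 1.17% of all rows. The median was 0.28. Besides SERPINB2, SERPINB7, a serpin of epithelia, stood at 17.0, 40.5 and 30.2 CPM (log2 ratio 0.79, counting SE 0.083) and PLAT, tissue plasminogen activator, at 14.8, 26.2 and 24.6 CPM (log2 ratio 0.69, counting SE 0.090). SERPINB9, the granzyme B inhibitor, stood at 9.52, 13.8 and 14.9 CPM (0.59). Targets of YAP and TAZ, the coactivators held in check by the Hippo kinases, had 17 of 21 rows above control and a median of 0.26. CYR61, a secreted integrin ligand, stood at 241, 487 and 388 CPM (log2 ratio 0.69, counting SE 0.024), CTGF, its relative, at 31.0, 39.9 and 48.4 CPM (log2 ratio 0.63, counting SE 0.065) and F3, tissue factor, at 11.8, 15.4 and 16.9 CPM (0.49). CTGF and F3 were highest with siRNA 2 and CYR61 with siRNA 1. Outside these lists, DKK1, a secreted Wnt inhibitor, stood at 37.4, 74.4 and 63.4 CPM (0.75) and KRTAP2-3, a keratin-associated protein gene, at 53.4, 123 and 96.4 CPM (0.84).

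S100 proteins, small calcium-binding dimers, had 6 of 9 rows above control and a median of 0.23. The list was taken by symbol pattern, which also admits S100PBP, a binding partner outside the family. S100A6 had the largest gain in tags of any row, from 8968 CPM with control to 10523 with siRNA 2 (log2 ratio 0.23, counting SE 0.0041), and stood at 9279 with siRNA 1. S100A10, the annexin A2 partner, stood at 585, 1003 and 774 CPM (0.40) and S100A13 at 160.3, 239.7 and 227 CPM (0.50). Other large gains in CPM were those of TMSB4X, which binds actin monomers, at 3959, 5938 and 5029 CPM (0.35), TMSB10, its relative, at 3600.3, 4129 and 4391 CPM (0.29), and MT2A, a metal-binding metallothionein, at 3841, 3692 and 4662 CPM (0.28). MT2A and S100A6 were high with siRNA 2 and near control with siRNA 1. The largest losses were in EEF1A1P5, annotated as a processed pseudogene of elongation factor 1A, at 2793, 2135 and 1689 CPM (-0.73), and in the ferritin chains. The 4 EEF1A1 entries summed to 4025, 3054 and 2482 CPM (-0.70), lowest with siRNA 2. NEAT1, the RNA that builds paraspeckles, stood at 1354, 816 and 909.6 CPM (-0.57), GNB2L1, the ribosomal scaffold RACK1, at 2001, 1554 and 1497 CPM (-0.42), and ACTG1, cytoplasmic gamma actin, at 1805, 1543 and 1338 CPM (-0.43). SNORD95, which lies inside GNB2L1, had nearly its values.

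Cholesterol synthesis and uptake genes, which the factor SREBP-2 regulates, had 26 of 30 rows above control and a median of 0.25. The sterol element, TCACNCCAC, stood in 1 of 23 promoters of this list, in a gene with a ratio of -0.09, against 1.18% of all promoters. FDPS, which makes farnesyl diphosphate, stood at 158, 219 and 223 CPM (log2 ratio 0.49, counting SE 0.030), SQLE, squalene epoxidase, at 104, 143 and 143 CPM (0.45), and CYP51A1, the lanosterol demethylase, at 152, 184 and 208 CPM (0.45). SREBF1, the regulator of fatty acid synthesis, stood at 129.6, 76.9 and 93.0 CPM (-0.47), below control with either siRNA. Fatty acid and lipid droplet genes had a median of 0.03 over 24 rows, with 0 at least 1.5-fold higher and 1 lower. That was PLIN2, which coats lipid droplets, at 144, 59.0 and 86.3 CPM (log2 ratio -0.73, counting SE 0.039). FADS2, a fatty acid desaturase, stood at 129, 199 and 186 CPM (0.52). APOE, a lipid carrier, stood at 55.1, 26.2 and 70.8 CPM (0.35), above control with siRNA 2 and below it with siRNA 1.

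Of 26 iron and heme rows, 20 were below control, with a median of -0.15. Of the 26 rows, 2 were at least 1.5-fold lower, against 1.83% of all rows. FTH1, the ferritin heavy chain, stood at 2248, 845 and 1488 CPM (log2 ratio -0.59, counting SE 0.0096) and FTL, the light chain, at 3796, 1909 and 2804 CPM (log2 ratio -0.44, counting SE 0.0072), and FECH, the last enzyme of heme synthesis, at 43.8, 30.2 and 29.7 CPM (-0.55). NRF2 targets, the antioxidant genes, had 20 of 31 rows below control and a median of -0.11, beside -0.40 with siRNA 1. Of these rows 5 were at least 1.5-fold lower and 1 higher, against 1.83% and 1.17% of all rows, and 2 of the 5, HMOX1 and FTH1, are also in the iron and heme list. Another of the 5 was the lower TRIM16 entry, although the TRIM16 and TRIM16L entries summed to a ratio of -0.04. Without copied or unsearched loci the median was -0.05, near that of all rows. GSR, glutathione reductase, stood at 87.8, 58.4 and 86.0 CPM (-0.03) and NQO1, a quinone reductase, at 543, 294 and 448 CPM (-0.27), 2 members named after their values were seen, both nearer to control with siRNA 2 than with siRNA 1. Lysosomal enzymes and membrane proteins had a median of -0.10, with 19 of 33 rows below control, a share near the 58.4% over all rows, and 1 past 1.5-fold, LAMP3. GRN, progranulin, stood at 204, 153 and 146 CPM (-0.49), TPP1, a lysosomal peptidase, at 368, 190.2 and 267 CPM (-0.46) and CTSF, cathepsin F, at 29.6, 39.5 and 39.1 CPM (0.39). Autophagy genes had 25 of 33 rows below control and a median of -0.13, with ATG14, a subunit of the autophagy lipid kinase, at 31.6, 22.2 and 20.6 CPM (-0.59) and ULK1, the initiating kinase, at 15.6, 10.1 and 10.9 CPM (-0.48). The vacuolar proton pump had 10 of 17 rows below control, also near the share over all rows, and a median of -0.04, from ATP6V0A1 at 41.0, 39.6 and 28.3 CPM (-0.52) to ATP6V0E1 at 175, 239.9 and 233 CPM (0.41).

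Vesicle coat genes had 26 of 33 rows below control, with a median of -0.14. COPG1, a subunit of the COPI coat of Golgi vesicles, stood at 95.8, 67.7 and 63.2 CPM (log2 ratio -0.59, counting SE 0.046) and SEC24C, a cargo subunit of the COPII coat, at 48.4, 37.2 and 33.9 CPM (-0.50). AP1M2, the epithelial subunit of the AP-1 clathrin adaptor that sorts cargo to the basolateral surface, went the other way, at 94.96, 179.9 and 176 CPM (log2 ratio 0.88, counting SE 0.036). It was the only row of the 33 at least 1.5-fold higher, and both siRNA libraries were alike. Of 43 rows for RAB GTPases, RAB11A and RAB43 were past 1.5-fold. RAB3B, a secretory RAB, stood at 15.6, 25.2 and 20.8 CPM (0.39). Endosomal SNAREs had 13 of 17 rows below control and a median of -0.10, and besides VAMP7 none was past 1.5-fold. STX7, a late endosome syntaxin, stood at 81.4, 70.9 and 60.4 CPM (-0.43).

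Signalling targets were mixed. NF-kB and chemokine genes had 17 of 24 rows below control and a median of -0.24. CXCL2 and CXCL5, neutrophil chemokines, stood at 25.2, 17.3 and 15.1 CPM (-0.70) and 88.5, 44.6 and 54.2 CPM (-0.70), while CD70, a TNF-family ligand, stood at 11, 24.9 and 19.7 CPM (log2 ratio 0.79, counting SE 0.10). ERK output and immediate early genes had 21 of 26 rows below control and a median of -0.15. SPRY4 and DUSP6, feedback inhibitors of ERK signalling, stood at 28.7, 16.6 and 17.9 CPM (-0.65) and 31.7, 22.4 and 21.2 CPM (-0.56), whereas SPRY2, another feedback inhibitor, stood at 30.9, 45.2 and 43.4 CPM (0.48). FGF2 and VEGFA, growth factors, stood at 55.5, 37.3 and 35.6 CPM (-0.63) and 143, 65.6 and 94.0 CPM (-0.60). The median of 16 receptor tyrosine kinase and ligand rows was -0.08. Interferon response genes had a median of -0.02 over 26 rows, with IRF1 at 17.6, 14.2 and 10.7 CPM (-0.67). p53 targets had 16 of 24 rows below control, beside 58.4% of all rows, and a median of -0.10. Of the 24 rows, 4 were at least 1.5-fold lower, against 1.83% of all rows. Among the 4 were GDF15 and XPC, a DNA damage sensor, at 65.4, 44.4 and 39.4 CPM (-0.72). Apoptosis regulators had a median of -0.04 over 28 rows and none past 1.5-fold. ID3, a BMP-induced inhibitor of helix-loop-helix factors, stood at 19.2, 33.1 and 12.6 CPM (log2 ratio -0.57, counting SE 0.098), below control with siRNA 2 and above it with siRNA 1.

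Nuclear-encoded respiratory chain and ATP synthase genes had 60 of 82 rows above control and a median of 0.10, with none past 1.5-fold. COX7A2, a cytochrome oxidase subunit, stood at 313, 383 and 428 CPM (0.45). Cytosolic ribosomal protein genes had a median of 0.04 over 83 rows, and of 0.13 without the 54 rows that were pseudogenes, had a copied start or were not searched. RPS6, the ribosomal substrate of S6 kinase, stood at 636, 1024 and 972 CPM (log2 ratio 0.61, counting SE 0.015), and RPL9, with a copied start, at 214, 204 and 135 CPM (log2 ratio -0.67, counting SE 0.032), low with siRNA 2 alone. Translation factors and MNK kinases had 46 of 66 rows below control and a median of -0.10, with 4 at least 1.5-fold lower against 1.83% of all rows. Of the 66 rows, 25 had a copied start, were pseudogenes or were not searched, and without them the median was -0.02, closer to 0 than that of all rows. EIF4B, a helicase cofactor, was among the 4 at 64.6, 58.4 and 41.6 CPM (-0.62). Zinc finger genes named ZNF had 225 of 328 rows below control and a median of -0.09, with 2 past 1.5-fold, ZNF609 and ZNF674. SF3B2, a spliceosome subunit, stood at 192, 155 and 135 CPM (-0.51) and SRSF7, a splicing regulator, at 209, 307 and 297 CPM (0.51), around a splicing factor median of 0.04 over 57 rows. Heat shock chaperones had a median of 0.01 over 36 rows (-0.01 without copied or unsearched loci), with HSPA9, the mitochondrial HSP70, at 576, 378 and 389.9 CPM (-0.56) and HSPE1, its small partner chaperonin, at 1045, 1355 and 1401 CPM (0.42). The proteasome (median 0.01, 48 rows), mitochondrial ribosomal proteins (-0.02, 76), purine and pyrimidine metabolism (0.01, 35) and hypoxia and glycolysis (-0.0022, 32) lay close to 0. The negative medians nearest 0 among these lists turned positive under TMM and median-ratio scaling and carry no direction, which holds for G1 cyclins, RAB GTPases, the proton pump, interferon response, apoptosis, hypoxia and mitochondrial ribosomal proteins.

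Cytoskeletal and junction lists had medians near that of all rows. Actin and SRF target genes had 0.03 over 37 rows, with 1 at least 1.5-fold higher and 2 lower, against 1.17% and 1.83% of all rows. The lowest was ACTA1, given above (-2.04). TAGLN, an actin-binding protein, stood at 37.6, 88.0 and 60.1 CPM (0.66) and MYL6, a myosin light chain, at 1102, 1519 and 1518 CPM (0.46). Integrins, laminins and collagens had 0.03 over 23 rows, with ITGB1, the shared integrin beta chain, at 1037, 953 and 828 CPM (-0.32). Epithelial junctions and keratins had -0.08 over 20 rows. KRT80, a keratin of differentiating epithelia, stood at 16.1, 16.2 and 9.28 CPM (log2 ratio -0.74, counting SE 0.11), low with siRNA 2 alone, and KRT19, a simple-epithelial keratin, at 109, 175 and 152 CPM (0.47). Of 28 squamous lineage markers, 5 had an entry in the values used here, and 3 passed 5 CPM. The 3 were SFN at 33.2, 44 and 42.0 CPM, PERP at 141, 128 and 120.4 CPM and S100A2 at 23.6, 24.0 and 23.2 CPM. JAG1 and GJB2 had means of 1.72 and 0.93 CPM. TP63, SOX2, KRT5 and KRT14, which define the squamous type, matched no entry in the values used here, so the labelled type could not be checked on them. Of 15 lung glandular and alveolar markers none passed 5 CPM, and of 21 markers of fibroblasts, endothelium and leukocytes CD68, which tumour lines can also express, was the 1 that did, at 45.2, 21.1 and 31.4 CPM (-0.51).

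Most of all rows compared lay outside every list, a share that was not counted. Of the rows past 1.5-fold, 143 of the 190 lower and 77 of the 121 higher lay outside every list. Named after their values were seen, the lower ones included IDH1, cytosolic isocitrate dehydrogenase, at 278, 109.7 and 168 CPM (-0.73), and GFPT1, the first enzyme of hexosamine synthesis, at 196, 102 and 116 CPM (-0.75). RCAN1, a calcineurin inhibitor, stood at 106, 64.2 and 59.4 CPM (-0.82) and CNOT6, a deadenylase, at 47.1, 38.6 and 24.1 CPM (-0.94). Among the higher ones, KISS1, a secreted peptide precursor, stood at 518, 1052 and 833 CPM (0.68), TGM2, a protein crosslinking enzyme, at 142, 266 and 219.6 CPM (0.62) and CD59, a complement inhibitor, at 372, 599 and 562 CPM (0.59). SCARNA2, a small Cajal body RNA, stood at 536, 586 and 831 CPM (0.63), high with siRNA 2 alone.

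The share of genes past 1.5-fold differed with level and with promoter composition. Among the 544 rows above 300 CPM the median was 0.03, with 23 at least 1.5-fold higher and 4 lower, whereas the 3017 rows from 20 to 50 CPM had a median of -0.06, with 24 higher and 55 lower. Promoters in the lowest of 4 bins of G and C content had 1.71% of genes at least 1.5-fold higher and 1.52% lower, and those in the highest bin 0.204% and 2.40%. The 2 bins between had 0.885% and 0.488% higher. These properties overlap with each other and with the histone genes, and their separate parts were not tested.

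**Figure D4:**
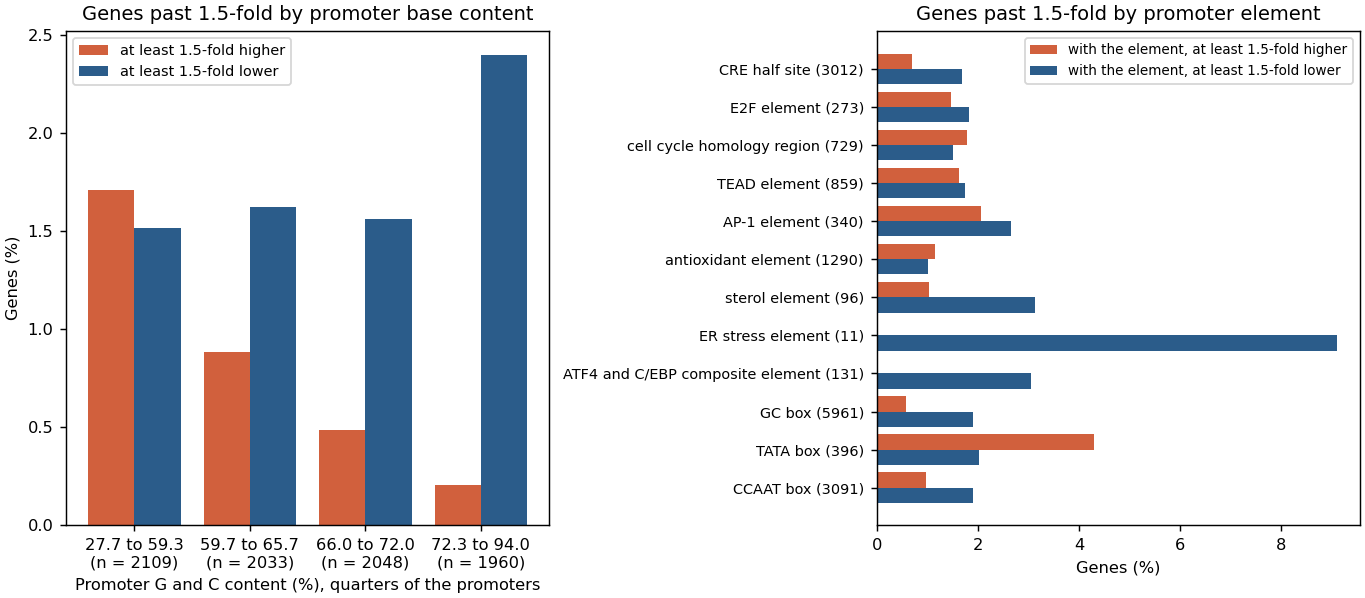
Left, share of genes at least 1.5-fold higher or lower with siRNA 2 than control (%), in 4 bins of about equal size of promoter G and C content over 8150 promoters. Right, the same shares among genes whose promoter holds each element, with the number of such genes in brackets; the ER stress element rests on 11 genes. The share of higher genes falls from 1.71% to 0.204% across the bins and is 4.29% for promoters with the letters of the TATA box.

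Matches to the siRNA 2 guide seed in 3′ UTRs went with hardly any difference in the median ratio. Among 9413 genes with an annotated canonical 3′ UTR of at least 20 bases, RAB11A left out, 1523 held TTGCAGA. Their median was -0.051 against -0.047 for the 7890 without, and 2.43% against 1.60% were at least 1.5-fold lower. At least 1.5-fold higher were 0.460% with a match and 0.887% without. Among 3′ UTRs under 500 bases, 4 of 34 genes with a match (11.8%) were at least 1.5-fold lower, against 1.24% without. In the bins of longer 3′ UTRs these shares were 2.06% to 2.27% with a match and 1.58% to 1.88% without. With at least 2 matches the median of 291 genes was -0.051. For siRNA 1 and its own seed the medians were -0.074 with a match and -0.021 without, a difference of -0.053, beside -0.0039 for siRNA 2. Whether these differences differ was not tested. Genes with a match to the seed of the siRNA 2 sense strand (CTCTTGC) had a median of -0.065 against -0.044. CAGE counts capped starts, so a cleaved or repressed mRNA is seen only where its 5′ end is lost.

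Of the rows at least 2-fold lower with an annotated 3′ UTR, LAMP3, MKNK2, RAB43, C16orf52 and FLRT2 held a match. GDF15, HMOX1, EPAS1, UPP1, CSNK1G2, GALNT10, ZNF609 and UBQLN4 held none. Neither did RAB11A, PABPN1, ACTA1, BOLA2 and the lower TRIM16 entry. Among all genes whose 3′ UTR was searched, 16.2% held a match. The sites in 3 of the genes are shown, since these had a mean above 10 CPM, with the 7 matching bases in capitals (GRCh37, minus strand).
LAMP3 site, chr3:182840520-182840548: aaaggagagctTTGCAGAtaacaaaatag
MKNK2 site, chr19:2039195-2039223: cgtttgccatcTTGCAGAgctggggaggg
RAB43 site, chr3:128807953-128807981: gaagcctgtccTTGCAGAgcccctctgtt
For LAMP3, MKNK2 and RAB43 the log2 ratios were -1.06, -1.09 and -1.04 with siRNA 2 and -1.56, -1.13 and -1.11 with siRNA 1. C16orf52 had -1.24 with siRNA 2 and -0.45 with siRNA 1, and FLRT2, with 4 matches, -1.26 and -0.96. Whether the matches had a part in these ratios was not tested.

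**Figure D5:**
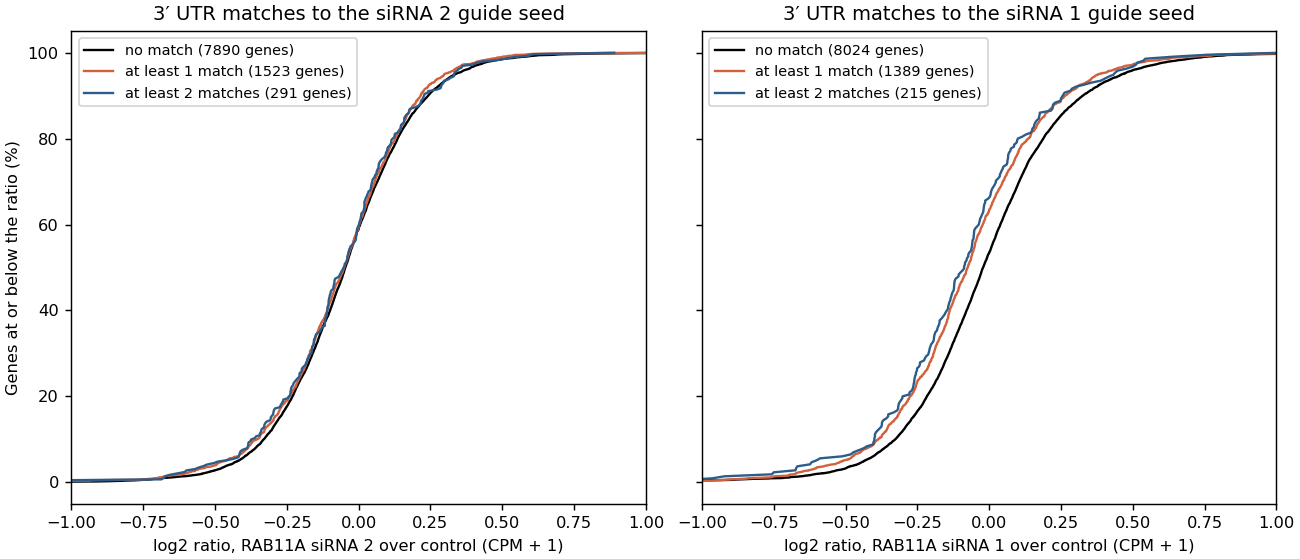
Cumulative share of genes (%) at or below each log2 ratio to control, for genes with no match, at least 1 match and at least 2 matches in the 3′ UTR to the guide seed, for siRNA 2 on the left and siRNA 1 on the right. The 3 curves for siRNA 2 nearly coincide, with medians of -0.05 for each, while those for siRNA 1 are set apart, at -0.07 with a match and -0.02 without.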

How the data were processed

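CAGE tags had been counted per gene and deposited by the authors as CPM in 1 table, with 1 column for each of 3 libraries (13479 gene entries). The submitters' processing notes name hg19, BWA and HISAT2, with no roles or versions. The sources used here do not give the counting program, the annotation or tag filters. The step of the values was 0.04 CPM in each library, and within 0.005 CPM 99.99%, 100.0% and 100.0% of them were whole tags. Since that step was the same throughout, the depth before scaling is unknown if libraries had been cut or scaled to 1 size.

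A gene was kept when its 3 libraries averaged 5 CPM or more, and identical rows were merged. Ratios were log2((CPM + 1)/(CPM + 1)), which understates the change of low genes. No test between conditions was made. An exact binomial test on the recovered tags, with Benjamini-Hochberg adjustment, called 1893 rows higher and 3110 lower of 10357. It compares 2 libraries, not 2 treatments.

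Annotated starts came from GENCODE 44 mapped to GRCh37, their first 50 bases were aligned with minimap2 2.31, and 3′ UTRs were searched for the 7 bases opposite the seed. Promoters came from RefSeq. TMM factors came from edgeR 4.0.16 in R 4.3.3. Other steps ran in Python 3.11.15 (scipy 1.17.1 for tests, pandas 2.3.3 and numpy 2.4.6 for tables, matplotlib 3.10.9 for plots, pysam 0.24.0 and samtools 1.23.1 for sequence).

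Genes were named by rule: RAB11A and its list, rows at least 2-fold from control and averaging 10 CPM or more, the 12 highest and 12 lowest with no copied start and averaging 50 CPM or more, the 8 largest gains and 8 largest losses in CPM, and up to 4 widest members of each list with a mean of at least 10 CPM. Named outside it were rows next to the 2-fold limit, genes with a promoter element (CHAC1, ASNS, TARS, CALR, CANX, CRELD2, HSP90B1), HIST1H1D as the lowest histone, and genes stated to be chosen after their values were seen. The genes and lists were chosen with earlier results of these data known. Alternatives were pseudocounts of 0.5 and 5 CPM, other minimum levels, TMM and median-ratio scaling, unmerged rows, leaving out copied loci and other seed match rules. Some genes that the rule names are not reported here.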

Additional observations from a re-analysis of the deposited data

How the results depend on the processing

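With 1 library a group, no library could be left out. No paired analysis was possible because the groups hold 1 library each and share no replicate. At a pseudocount of 5 CPM, 15 rows were at least 2-fold lower, 79 at least 1.5-fold higher and 109 lower, RAB11A had -2.34, the median of all rows was -0.0387 and that of genes with a seed match -0.0436 (-0.0397 without). At a minimum mean of 1 CPM, 46 rows were at least 2-fold lower and the median was -0.0419. At 20 CPM, the counts were 7 higher and 12 lower at 2-fold, 70 and 100 at 1.5-fold, with a median of -0.0408. With no filter, 50 rows were at least 2-fold lower, 187 were higher and 301 lower at 1.5-fold, and the median was -0.0398. Without copied, pseudogene or unsearched loci, which left 8485 rows, 5 rows were higher and 15 lower at 2-fold and 72 higher at 1.5-fold. Other minimum levels and left-out loci change how many rows are compared. Their counts are therefore not shares, and the limit of 1.5 times the count used below takes no account of this. TMM scaling gave a median of all rows of 0.0034, of seed-matched genes of -0.0015 (0.0016 without a match), and 28 list medians above 0 in place of 16, and median-ratio scaling gave 0.0025, -0.0024 (0.0007 without) and 28. Over the alternatives, 60 of 86 values of counts, target and medians over genes, 361 of 500 list medians and 2151 of 2281 ratios of named genes stayed within 1.5 times the count or, for ratios and medians, within a 95% counting interval, and none of those past the size limits changed sign. The binomial test at the same folds gave the same 18, 26, 121 and 190 rows. Depth limits the lowest genes: 0 tags allow up to 0.12 CPM (3 tags), and the median counting SE at 5 to 10 CPM was 0.133, against 0.0176 above 300 CPM.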

Other observations

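Some genes lay on opposite sides of control with the 2 siRNAs, and they are given as values, chosen after the values were seen. TNFRSF11B, the decoy receptor osteoprotegerin, stood at 24.8, 36.9 and 17.0 CPM (control, siRNA 1, siRNA 2), and COL4A1, a basement membrane collagen, at 20.3, 28.4 and 15.3 CPM. Both were above control with siRNA 1 and below it with siRNA 2. LY96, the TLR4 coreceptor MD-2, stood at 34.0, 28.7 and 49.4 CPM and TM4SF19, a tetraspanin-like membrane protein, at 35.4, 22.2 and 45.2 CPM, both below control with siRNA 1 and above it with siRNA 2. FAM53C stood at 47.1, 48.7 and 29.4 CPM and SEMA4C, a semaphorin, at 29.2, 27.6 and 16.7 CPM, low with siRNA 2 alone. The lowest medians of any chromosome were those of chromosome 20, at -0.10 over 270 rows, and chromosome 19, at -0.09 over 722 rows, beside -0.04 over all rows. RNA silencing machinery genes had 15 of 18 rows below control, with a median of -0.11. U3 small nucleolar RNA entries summed to 3.44, 302 and 46.8 CPM, and U1 entries, 15 in number, to 506, 707 and 629.5 CPM. Both are families of near-copies, summed after the values were seen, and which start their tags came from was not tested.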
